A study of Mus musculus with 14 samples.

Results

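The BMP response genes described here are the ligand *Bmp4*, the receptor *Bmpr1a*, the effector Smads *Smad1* and *Smad5*, the inhibitory Smads *Smad6* and *Smad7*, and the target genes *Id1*, *Id2*, *Id3* and *Id4*. They were chosen by gene symbol and are 10 of the 52459 genes in the count tables. Their exons carried 15 of the 17693 m6A peaks of wild-type (WT) cells and 10 of the 9437 peaks of METTL14 R255K cells. The study used E14Tg2a cells, a mouse embryonic stem cell (mESC) line, kept on gelatin in serum and LIF. WT cells were compared with METTL14 R255K knock-in cells, made with CRISPR-Cas9 and carrying lysine in place of arginine at this residue of METTL14, the RNA-binding partner of the m6A methyltransferase METTL3. RNA stability was followed in 6 libraries, 1 per genotype and time, after 0, 4 or 8 h of 5 µg/ml actinomycin D, which blocks transcription, and m6A by MeRIP-seq of untreated cells with 2 IP and 2 input libraries per genotype, deposited as 1 peak list per genotype. With 1 library per genotype and time there are no replicates, so no test was run, and each 95% interval covers counting error only.

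BMP ligands such as BMP4 bind pairs of type I and type II receptors, and the activated type I receptor (BMPR1A is one) phosphorylates SMAD1 and SMAD5. These enter the nucleus with SMAD4 and turn on the *Id* genes and, as a feedback, *Smad6* and *Smad7*, whose products block the receptors or the effector Smads. ID proteins lack a DNA-binding domain, pair with bHLH factors (the E proteins TCF3, TCF4 and TCF12) and keep them from DNA. In mESCs in serum, BMP signalling through the ID proteins is known to hold back neural differentiation while LIF supports self-renewal. m6A is a methyl mark on adenosine, often in the sequence GGAC near stop codons and in 3´UTRs, and it is known to speed the decay of many mRNAs.

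The libraries held 13812160 to 18813640 counts. All 6 mESC markers (*Pou5f1*, *Sox2*, *Nanog*, *Zfp42*, *Esrrb*, *Dppa5a*) were high at 0 h, with 174 to 878 FPKM (counts scaled to exon length and library total) in WT and 80.4 to 593 in R255K cells. The summed FPKM of 5 fibroblast markers was 1.64 in WT and 5.94 in R255K cells, that of 4 mesoderm markers 1.03 and 4.51, that of 4 endoderm markers 5.37 and 5.16 (*Gata4* 3.35 and 1.74, *Foxa2* 0.291 and 1.67) and that of 4 ectoderm markers 15.7 and 4.51, of which *Sox1* made up 13.4 and 1.76; *Postn* was at 0 in both. *Mettl14* itself had 5.27 FPKM in WT and 2.58 FPKM in R255K cells at 0 h, a ratio of 0.489 (0.426 to 0.561), or 0.732 with the correction for GC content described next; a knock-in of a codon leaves the transcript in place, so this level does not check the labels. The 0 h libraries differed in GC trend. Between genes of 39.9% and 59.3% exon GC, log2 levels relative to the mean of the 6 libraries differed by −0.54 in the WT and by 0.48 in the R255K 0 h library, and the other 4 lay between −0.20 and 0.19. The 0 h ratios, shares left and half-lives of the 10 genes were therefore also computed with a correction for this trend.

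The m6A sites that the results on peaks turn on are shown first, as the GGAC nearest to the summit of a WT peak. Each line gives 28 bases of the gene's strand, 5´ to 3´, from the RefSeq GRCm38.p6 genome (mm10), and the capitals mark the GGAC. The first 3 lie in 3´UTRs of the *Id* genes, the next in the lost coding peak of *Smad6* and the one after it in the *Bmp4* peak. That peak had a higher enrichment in R255K cells, but at a summit 243 bp from the WT summit used here. The last sites lie in the *Smad1* peaks whose enrichment fell most among the kept peaks of these genes.
Id1, chr2:152737110-152737137, plus strand: accgcagccaccGGACtcttggcggatc
Id2, chr12:25094372-25094399, minus strand: gttctccggcctGGACtgtgataccgtt
Id3, chr4:136145027-136145054, plus strand: agcccgagagaaGGACtgaacttgggtg
Smad6, chr9:64020617-64020644, minus strand: cttctccgaacgGGACgcagcaggcgcg
Bmp4, chr14:46384397-46384424, minus strand: cagtccttcgctGGACccgggaaaagca
Smad1 coding sequence, chr8:79372067-79372094, minus strand: agagaaagctgtGGACgctttggtgaag
Smad1 3´UTR, chr8:79339576-79339603, minus strand: tacttgaaggatGGACaagtcagacagg
The methylated base of this motif is its A. In the 3 *Id* sites the next base is T, which follows the nearest GGAC in 33.1% of the windows around all exonic summits that hold one. The A lay 1 base from the summit in *Id2*, 2 bases in *Id3*, 19 in *Id1*, 22 in both *Smad1* peaks, 27 in *Bmp4* and 55 in *Smad6*. GGAC, searched on the gene's strand only within 100 bp of the summit, was found at 13 of the 15 WT peaks of these genes and in 79.0% of the 13095 windows around exonic WT summits. The peak of *Bmpr1a* and the coding peak of *Smad5* had no GGAC in this window. AGAC was found at 12 of the 15 peaks, against 68.8% of all windows, and AAAC at 7, against 51.3%. A match describes the letters and is no measurement of methylation at that base.

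The MeRIP-seq peaks ask where these transcripts carry m6A and which of the peaks were still called in R255K cells. WT peaks that shared at least 1 bp with an R255K peak are termed kept, and the others lost. In WT cells, 9 of the 10 genes had a peak, all but *Id4*, and 57.4% of all genes that passed the expression filter (a mean of at least 1 FPKM over both genotypes at 0 h) had one. Summits lay in coding sequence in 6 cases, in 3´UTRs in 5 and in 5´UTRs in 4. Of the 15 WT peaks, 5 were lost (33.3%, 15.2 to 58.3), against 47.9% of all 13870 exonic WT peaks, so the share was within counting error of the background. *Id1*, *Id2* and *Smad5* lost every peak they had, *Smad6* lost 1 of 2, and *Id3*, *Smad7*, *Bmp4*, *Bmpr1a* and *Smad1* kept all of theirs. No peak of R255K cells on these genes lacked a WT partner (0 of 10). The share over all R255K peaks is not given here, so this count is not read as a trait of these genes. When at least 50% of the bases of a WT peak had to be covered, 8 of the 15 were lost, against 58.9% of all exonic WT peaks. The depth behind the peaks is not known from the lists.

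The lost peaks differed in strength. The *Smad6* peak (chromosome 9, 64020424 to 64021086, exon 1, summit in coding sequence) was enriched 8.54-fold over the local background (−log10 q 31.3), more than 70.3% of exonic WT peaks. The 5´UTR peak of *Smad5* (chromosome 13, 56703057 to 56703301) was enriched 9.44-fold (−log10 q 12.7), and its second peak (56723396 to 56723763, exon 2, at the start of the coding sequence) 3.15-fold (−log10 q 11.4). Those of *Id1* (chromosome 2, 152736952 to 152737266, exon 2) and *Id2* (chromosome 12, 25094175 to 25094474, exon 4), both in the 3´UTR, had low fold enrichments of 2.79 and 2.73. Their −log10 q was 14.8 and 6.88. *Id3* had a peak at a like place, 186 bases past the stop codon (chromosome 4, 136144932 to 136145203, exon 3), against 133 bases in *Id1* and 203 in *Id2*. Its fold enrichment was 3.21 in WT and 2.90 in R255K cells, with summits 1 bp apart. In fold enrichment the 3 *Id* peaks were thus all weak in WT cells, each above only 6.94% to 12.1% of exonic WT peaks. By −log10 q those of *Id1*, *Id2* and *Id3* were above 34.7%, 13.4% and 42.0%.

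**Figure D1:**
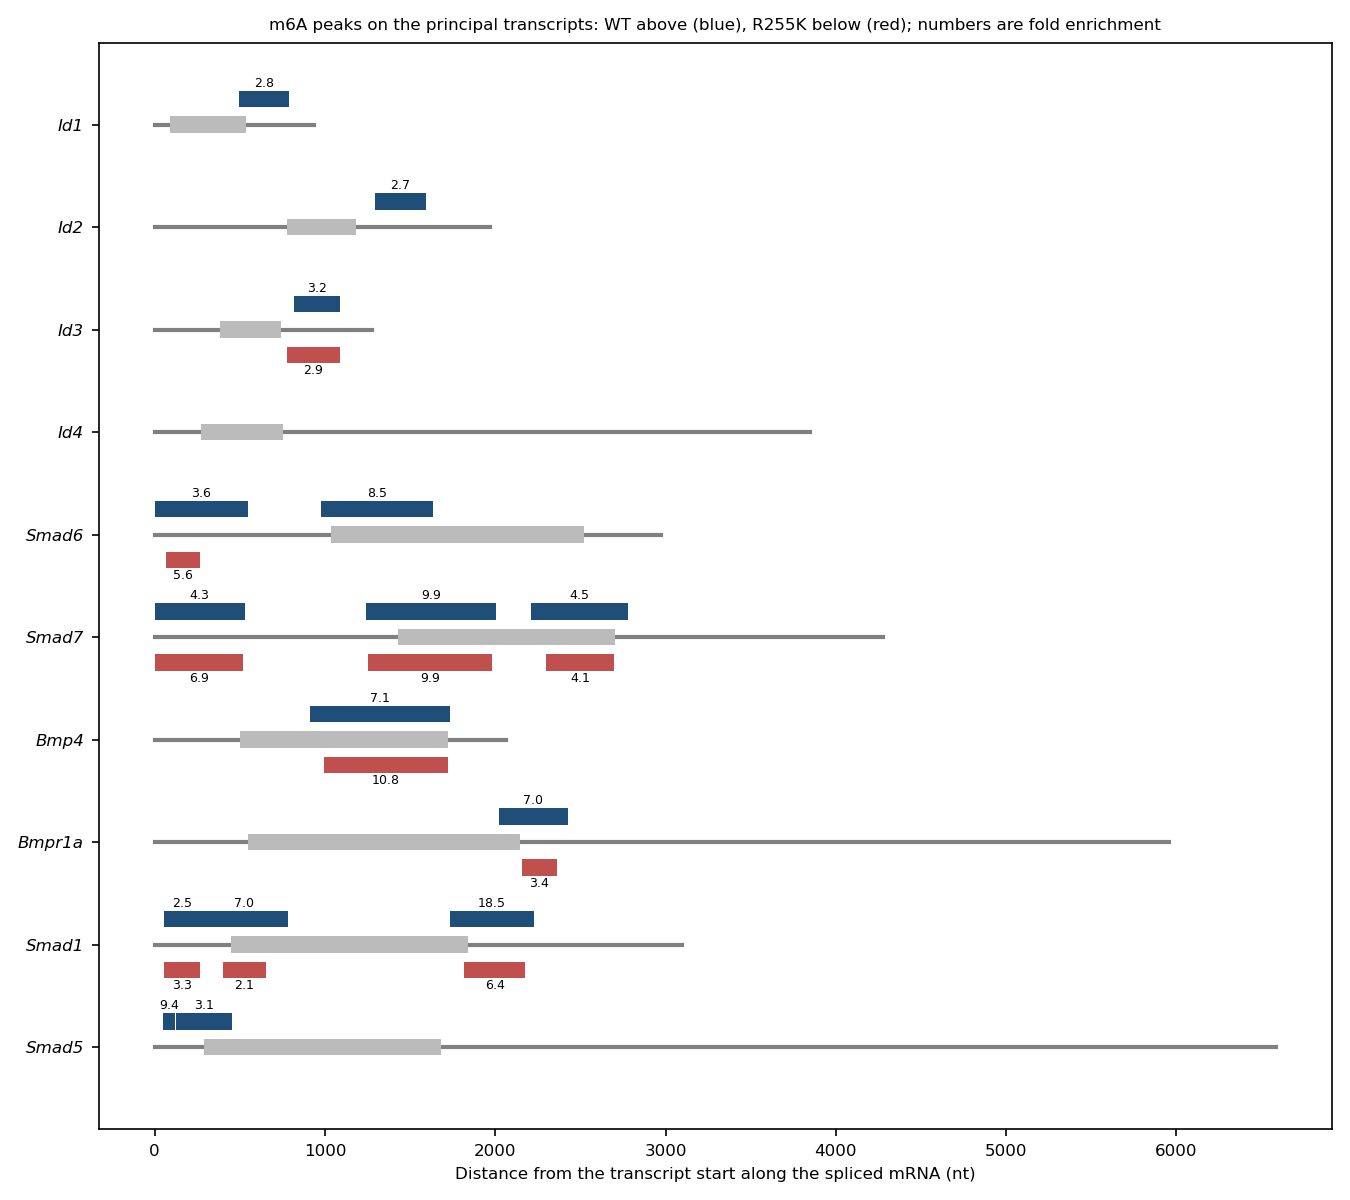
Peaks on the spliced principal transcript of each gene, in nucleotides from its start (thin line, UTRs; grey box, coding sequence), with WT peaks above in blue and R255K peaks below in red and the fold enrichment of each peak. *Id1*, *Id2* and *Smad5* have no red bar, *Smad6* has 1 for 2 blue bars, and *Id4* has neither; the 5´ *Smad5* peak is cut where it leaves the principal transcript.

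Among the 10 kept peaks, 6 had a lower fold enrichment in R255K cells, against 71.0% of all kept exonic peaks, and the median ratio of R255K to WT was 0.955, against 0.792. The fall was large in 3 of them. The 3´UTR peak of *Smad1* (chromosome 8, 79339267 to 79339760, exon 7, 85 bases past the stop codon) was the strongest of the 15 and fell from 18.5 to 6.42, its coding peak (79371846 to 79372374, exon 2) from 6.996 to 2.11, and the 3´UTR peak of *Bmpr1a* (chromosome 14, 34414264 to 34414691, exon 13, 77 bases past the stop codon) from 7.03 to 3.45. The coding peaks of *Smad7* (chromosome 18, 75368767 to 75369534, exon 1, and 75393864 to 75394438, exon 4) were nearly level in fold enrichment, at 9.93 and 9.91 and at 4.53 and 4.13. Their −log10 q was lower in R255K cells, with 190.4 in WT and 116.5 in R255K cells for the first and 62.9 and 27.2 for the second.

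The other 4 kept peaks had a higher fold enrichment in R255K cells, and 3 of these lay in 5´UTRs. The 5´UTR peak of *Smad7* (75367368 to 75368056) had 4.31 in WT and 6.89 in R255K cells, that of *Smad6* (64021513 to 64022093) 3.62 and 5.62, and that of *Smad1* (79399211 to 79399463) 2.47 and 3.30. Enrichment that was not lower was common at such sites, with 49.5% of all kept 5´UTR peaks, against 28.7% in coding sequence and 22.1% in 3´UTRs. The fourth was the only peak of *Bmp4* (chromosome 14, 46383852 to 46384669, exon 4, coding sequence), with 7.14 in WT and 10.8 in R255K cells, where its summit lay 243 bp away. The 5´UTR peaks of *Smad6* and *Smad1* were weakly called in WT cells. Their −log10 q of 4.52 and 3.235 were above only 5.65% and 2.26% of exonic WT peaks. In R255K cells the *Smad6* summit lay 192 bp away, at a base classed as coding sequence. Along *Smad1* the fold enrichment of the weak 5´UTR peak was thus higher, and that of the other peaks lower, in R255K cells. The lists hold no input levels. Of the genes with a higher 0 h level in R255K cells, *Id1* and *Id2* lost their peak, *Smad6* lost 1 of 2 and *Id3* kept its peak, and of those with a lower level, *Smad5* lost both peaks and *Bmp4*, *Bmpr1a* and *Smad7* kept theirs. The part of RNA level in these calls was not tested.

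The untreated cells ask whether the levels of the pathway's transcripts differ between the genotypes. In R255K cells *Id3*, *Smad6*, *Id1* and *Id2* were higher than in WT cells, *Bmp4* was far lower, and *Bmpr1a*, *Smad5* and *Smad7* were lower by less. At a 2-fold threshold, 2 of the 10 genes (*Id3* and *Smad6*) were higher, against 10.0% of the 11869 genes that passed the filter, and 1 (*Bmp4*) was lower, against 9.76%. All 10 passed the filter, with at least 1.24 FPKM in each genotype. The median ratio of R255K to WT was 1.21 over the 10 genes and 1.04 over all. All levels are shares of a library, so less RNA of other genes and more of these cannot be told apart, nor can a change in every cell and a change in the mix of cells.

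The ligand gene *Bmp4* had 1837 counts in WT and 226 in R255K cells at 0 h, or 47.4 and 6.496 FPKM. The WT level was 7.30-fold that of R255K cells (6.35 to 8.41), and only 0.253% of all genes had a lower ratio of R255K to WT. Both treated pairs showed the same order, with 2.161 FPKM in WT and 0.556 in R255K cells at 4 h and 1.53 and 0.406 at 8 h. With actinomycin D, 4.56% of the 0 h level was left at 4 h in WT and 8.56% in R255K cells. Half-lives of 1.15 h and 1.44 h were the shortest of the 10 genes in each genotype, save that with a floor of 1 count in place of 3 that of *Smad6* in WT cells was 1.099 h. They were computed from the mean of the decay rates to 4 h and to 8 h. Of all genes with a rate, 99.0% decayed more slowly in WT cells. Exons of *Bmp4* overlap the annotated genes *Gm15217* and *Gm15222* on the other strand, and whether counting used strand is not given in the sources used here, so its counts could hold their reads.

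*Bmpr1a*, which encodes a type I BMP receptor, moved in opposite directions in the 2 genotypes after actinomycin D. Its WT libraries held 1371, 476 and 207 counts at 0, 4 and 8 h (12.4, 5.00 and 2.36 FPKM), and its R255K libraries 627, 1232 and 1066 (6.31, 10.4 and 8.92 FPKM). The WT level thus fell at each time, and the R255K level was above its 0 h value at both later times. At 4 h 40.4% of the 0 h level (36.3 to 44.9) was present in WT and 165% (150 to 182) in R255K cells, and at 8 h 19.1% and 141%. A share of the library above its 0 h value while transcription is blocked gives no half-life in R255K cells. Of all genes with a value, 13.9% had the same pattern of a positive decay rate in WT and a negative one in R255K cells. Between 4 and 8 h alone, R255K cells kept 85.5% (78.7 to 92.9) of the 4 h level and WT cells 47.2% (39.9 to 55.7). *Bmpr1a* had the lowest exon GC content of the 10 genes, 42.2%, and with the correction for GC the ratio of R255K to WT at 0 h was 0.739 in place of 0.510 and the share present at 4 h in R255K cells was 131%. The annotated gene *Gm17110* overlaps its exons on the other strand.

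**Figure D2:**
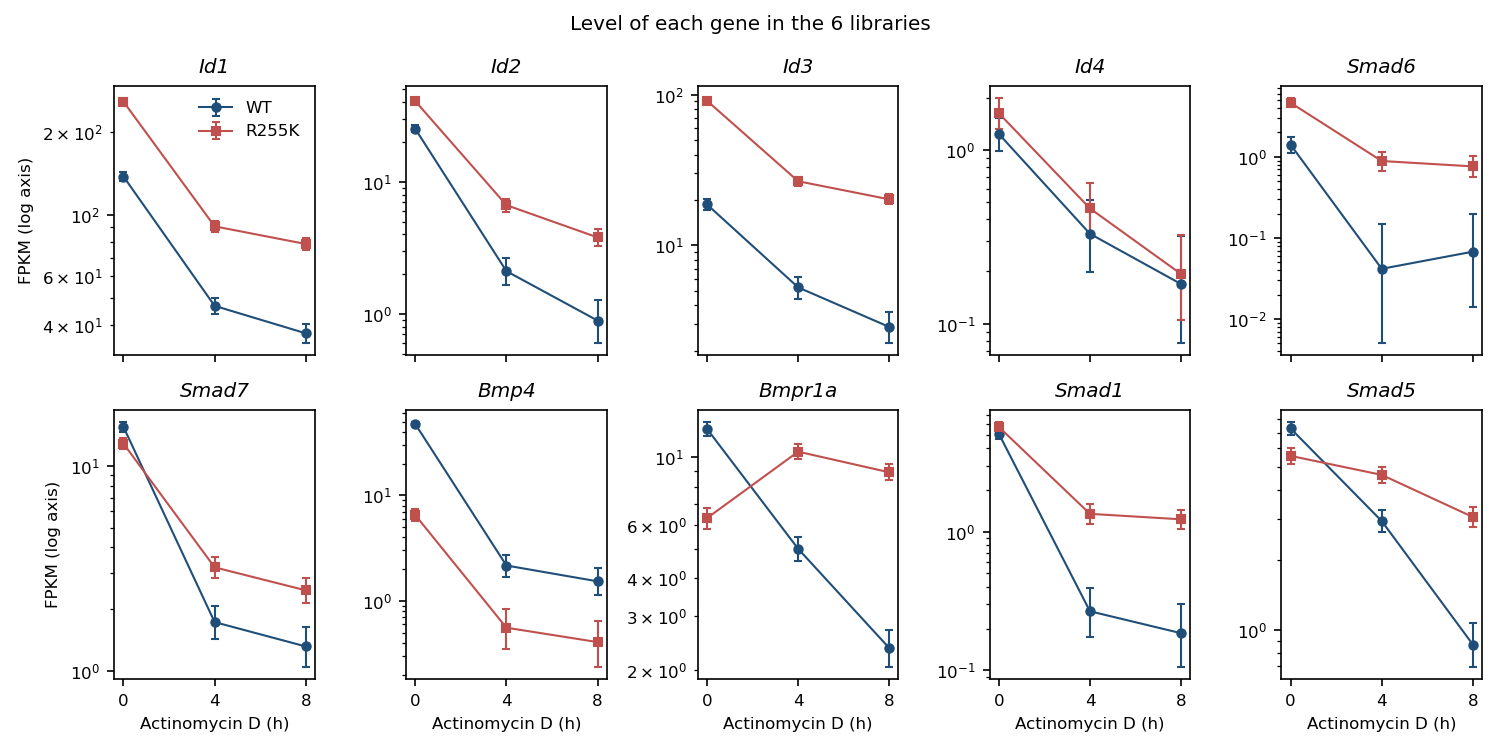
Level of each gene (FPKM, log axis) after 0, 4 and 8 h of actinomycin D in WT (blue circles) and R255K cells (red squares), 1 library per point with the 95% interval of its count. *Bmpr1a* rises from 6.31 to 10.4 FPKM in R255K cells and falls from 12.4 to 5.00 in WT cells by 4 h, *Bmp4* is lower in R255K cells at all times, and the intervals of *Id4* overlap at each time.

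The effector gene *Smad1* had like levels in untreated cells, with 558 counts (5.11 FPKM) in WT and 561 (5.73 FPKM) in R255K cells, a ratio of 1.12 (0.995 to 1.26). After 4 and 8 h of actinomycin D, 25 and 16 counts remained in WT and 157 and 145 in R255K cells. The R255K level was then 5.06-fold (3.30 to 8.06) and 6.65-fold (3.96 to 11.95) that of WT cells. At 4 h 5.21% (3.34 to 7.78) of the 0 h level was left in WT and 23.5% (19.6 to 28.1) in R255K cells, intervals that do not overlap. The half-life of 2.503 h in R255K cells was 2.08-fold (1.81 to 2.40) that in WT cells, 1.202 h. At 8 h 91.3% (72.3 to 115) of the 4 h level was left in R255K cells and 69.4% (34.6 to 135) in WT cells, intervals that overlap.

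*Smad5*, which encodes the other effector of the pair, was counted 945, 326 and 89 times in the WT libraries and 647, 638 and 426 times in the R255K libraries at 0, 4 and 8 h, or 7.31, 2.93 and 0.868 FPKM and 5.58, 4.62 and 3.05 FPKM. R255K cells were lower at 0 h (ratio 0.763, 0.689 to 0.844) and higher at 4 h (1.58, 1.38 to 1.81) and 8 h (3.51, 2.79 to 4.47). At 4 h 40.1% of the 0 h level was left in WT and 82.9% in R255K cells. WT cells gave a half-life of 2.80 h and R255K cells one of 11.4 h (8.73 to 16.3). The ratio was 4.05 (2.96 to 5.55), higher than that of 83.5% of the genes with a ratio. This gene had lost both of its m6A peaks. Small annotated genes (*Gm27271*, *Gm27301*, *Gm27834*) overlap its exons.

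The inhibitory Smads differed in opposite directions in untreated cells, and both were higher in R255K cells after actinomycin D. *Smad6* was counted 79, 2 and 3 times in the WT libraries at 0, 4 and 8 h and 233, 53 and 46 times in those of R255K cells. Both treated WT libraries were thus at or under the floor of 3 counts used for decay rates. Its 0 h level was 1.41 FPKM in WT and 4.65 FPKM in R255K cells, a ratio of 3.29 (2.54 to 4.30), above that of 96.4% of all genes. At 4 h the ratio was 21.4 (5.63 to 181) and at 8 h 11.3 (3.62 to 56.6). Of the 0 h level, 2.95% (0.351 to 11.0) was left at 4 h in WT and 19.1% (13.9 to 25.9) in R255K cells.

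*Smad7* had 15.5 FPKM in WT and 12.9 FPKM in R255K cells at 0 h, a ratio of 0.828 (0.759 to 0.903). The order was the other way round at 4 h, with 1.73 and 3.20 FPKM (ratio 1.85, 1.49 to 2.32), and at 8 h, with 1.31 and 2.47 FPKM (1.88, 1.45 to 2.46). At 4 h 11.1% (9.12 to 13.5) of the 0 h level was left in WT and 24.9% (21.6 to 28.5) in R255K cells. The half-life ratios were 1.81 (1.32 to 2.49) for *Smad6* and 1.55 (1.40 to 1.71) for *Smad7*, both with an interval that reaches under 1.5. *Smad7* kept all 3 of its peaks, and *Smad6* had lost the stronger of its 2.

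Of the target genes, *Id1* was the most abundant of the 10 genes, with 138, 46.8 and 37.2 FPKM in WT and 257, 90.9 and 78.4 FPKM in R255K cells at 0, 4 and 8 h. The R255K level was higher at each time, by 1.87-fold (1.78 to 1.96), 1.94-fold (1.79 to 2.11) and 2.11-fold (1.92 to 2.32). *Id3* differed most, with 18.7, 5.25 and 2.87 FPKM in WT and 91.0, 26.6 and 20.2 FPKM in R255K cells. Its ratio was 4.88 (4.46 to 5.35) at 0 h, above that of 98.1% of all genes, 5.06 (4.23 to 6.09) at 4 h and 7.03 (5.50 to 9.11) at 8 h. *Id2* was at 25.2, 2.11 and 0.891 FPKM in WT and at 40.8, 6.66 and 3.79 FPKM in R255K cells. Its ratio was 1.62 (1.499 to 1.76) at 0 h, 3.16 (2.45 to 4.11) at 4 h and 4.26 (2.88 to 6.50) at 8 h. For these 3 genes the interval of the ratio lay above 1 at each time. *Id4* was low, with 83, 19 and 9 counts in the WT libraries and 98, 33 and 14 in the R255K libraries. Its ratio of 1.32 at 0 h had an interval that spans 1 (0.972 to 1.78), as did those at 4 and 8 h. Without the GC correction a difference was thus not detectable at this depth. *Id4* had an exon GC content of 42.6%, and with the correction its 0 h ratio was 1.86, above that interval. Its ratio of shares left at 4 h was then 0.730. The annotated genes *A330033J07Rik* and *AC123857.1* overlap its exons on the other strand.

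The share left after actinomycin D separated the *Id* genes. *Id1* had 33.97% (31.4 to 36.7) left at 4 h in WT and 35.3% (33.5 to 37.3) in R255K cells, a ratio of 1.04 (0.946 to 1.15). *Id3* had 28.2% (23.3 to 33.9) and 29.2% (27.1 to 31.6), a ratio of 1.04 (0.848 to 1.28), and *Id4* 26.6% and 28.3%, with a ratio of 1.06 (0.540 to 2.13). In these 3 genes the intervals of the genotypes overlapped. *Id2* had 8.38% (6.56 to 10.6) left in WT and 16.3% (14.4 to 18.5) in R255K cells, a ratio of 1.95 (1.49 to 2.57). At 8 h the ratios were 1.13 (1.02 to 1.26) for *Id1*, 1.44 (1.11 to 1.90) for *Id3*, 0.868 (0.330 to 2.39) for *Id4* and 2.63 (1.76 to 4.04) for *Id2*. The half-lives of *Id1*, *Id2*, *Id3* and *Id4* were 3.198, 1.34, 2.52 and 2.39 h in WT and 3.39, 1.85, 2.80 and 2.38 h in R255K cells, with ratios of 1.06 (0.990 to 1.14), 1.38 (1.27 to 1.51), 1.11 (0.988 to 1.25) and 0.996 (0.697 to 1.42). *Id1* and *Id3* thus differed between genotypes in level by more than counting error, and by little in the share left at 4 h. *Id1* had lost its m6A peak and *Id3* had kept it.

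**Figure D3:**
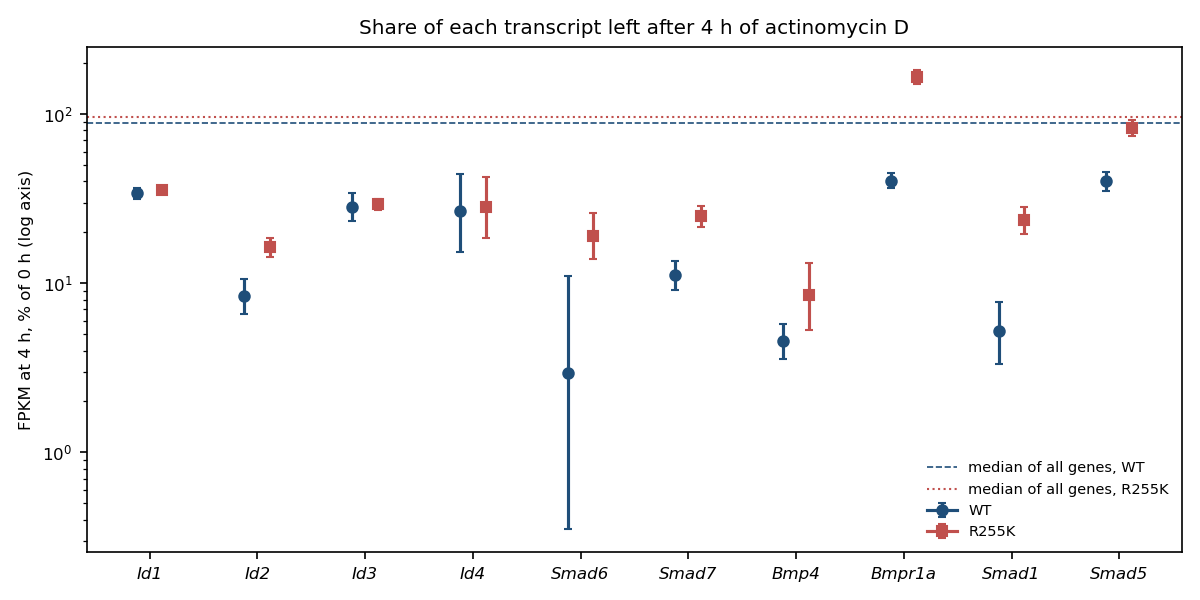
Level at 4 h as percent of the 0 h level (log axis) in WT (blue circles) and R255K cells (red squares), 1 pair of libraries per point with 95% intervals for counting error, and the medians of all genes that passed the filter (lines, 88.8% in WT and 96.6% in R255K cells). The intervals of *Id1*, *Id3*, *Id4* and *Bmp4* (4.56% and 8.56%) overlap, and those of *Id2*, the Smads and *Bmpr1a* do not, with the red point above the blue one.

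The 10 transcripts were short-lived in WT cells. In WT cells each had a half-life under 3.49 h, the median of the 5504 genes with a half-life in both genotypes, from 1.15 h for *Bmp4* to 3.198 h for *Id1*, and 77.4% to 99.0% of all genes with a rate decayed more slowly. The median share left at 4 h was 18.9% over the 10 genes in WT cells against 88.8% over all genes, and 26.6% against 96.6% in R255K cells. In R255K cells *Bmpr1a* gave no half-life, and that of *Smad5*, 11.4 h, was above the 8.08 h median of those 5504 genes. Of all genes with a rate, 70.5% decayed more slowly than *Smad5* in R255K cells and 6.30% more slowly than *Bmpr1a*. In the WT order the intervals of neighbours overlapped from *Bmp4* through *Smad6* and *Smad1* to *Id2* (1.34 h), and from *Id4* (2.39 h) through *Id3*, *Smad5* and *Bmpr1a* to *Id1*. *Smad7*, at 1.62 h (1.515 to 1.73), stood between them and overlapped neither neighbour, *Id2* or *Id4*. It did overlap the wide interval of *Smad6* (0.9325 to 1.665 h), so it is not set apart from all of the first group. In the last 500 bases of the principal transcript, the letters ATTTA, the core of AU-rich elements, occurred in 6 of the 10 genes, against 52.0% of 10334 genes, and at least 2 copies in 5, against 22.4%. The longer TATTTAT, which contains ATTTA, occurred in 4, against 12.9%, namely in *Id2*, *Smad6*, *Smad7* and *Bmp4*. These 4 had WT half-lives of 1.15 to 1.62 h. Over the whole 3´UTR, *Id4* (2.39 h) and *Smad5* (2.80 h) also held 1 TATTTAT, and *Smad1*, at 1.202 h, held neither sequence.

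At a threshold of 1.5, the share left at 4 h was higher in R255K cells in 7 of the 10 genes (*Id2*, *Smad6*, *Smad7*, *Bmp4*, *Bmpr1a*, *Smad1* and *Smad5*), against 31.9% of all genes, and lower in 0, against 6.54%. The intervals of these 7 ratios lay above 1. At 8 h the same threshold was passed by 7 of the 10 genes, against 44.5%, and 0 were under its inverse, against 9.29%. The median ratio at 4 h was 2.01 over the 10 genes and 1.13 over all. By half-life the picture was different. Of the 9 genes with a half-life in both genotypes, 4 (*Smad1*, *Smad5*, *Smad6*, *Smad7*) had a ratio over 1.5, against 68.8% of the 5504 genes with a ratio, and 0 had one under its inverse, against 5.78%. The median half-life ratio was 1.38 over the 9 genes and 1.98 over the 5504, whose median half-lives were 3.49 h (WT) and 8.08 h (R255K). For a given ratio of half-lives, the ratio of shares left at 4 h is larger the shorter the half-lives are, so the 2 counts are on different scales. Shares left and levels at 0 h rest on the same 0 h libraries and are not independent.

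By 8 h of actinomycin D, 7 of the 10 genes were at least 2-fold higher in R255K cells, against 34.5% of all genes, and 1 was lower, against 3.77%. At 4 h the counts were 5, against 20.9%, and 1, against 3.86%. The median ratio over all genes moved from 1.04 at 0 h to 1.16 at 4 h and 1.40 at 8 h, and that over the 10 genes from 1.21 to 2.01 and 3.65. *Id4* (1.14) and *Smad7* (1.88) were the higher genes that did not reach the threshold at 8 h, and *Bmp4* (0.266) stayed the lower one.

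**Figure D4:**
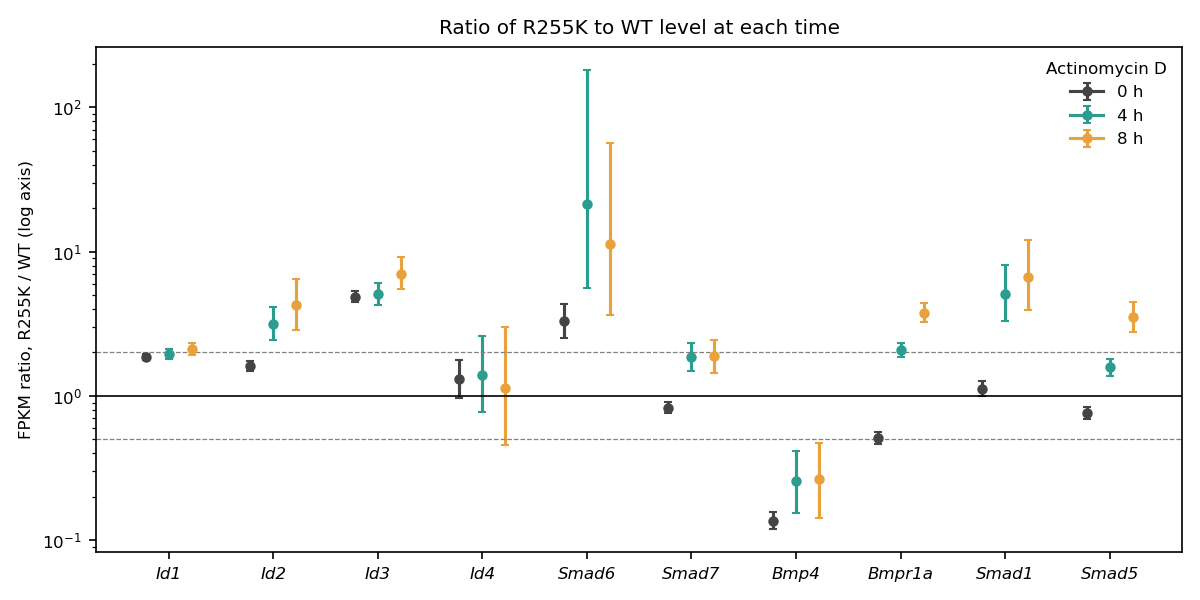
Ratio of R255K to WT level (log axis) for each gene after 0 h (grey), 4 h (green) and 8 h (orange) of actinomycin D, with 95% intervals for counting error; the solid line marks equal levels and the dashed lines 2-fold. *Id1* stays near 2 (1.87 to 2.11), *Id3* lies between 4.88 and 7.03, *Smad7*, *Bmpr1a* and *Smad5* cross from below 1 to above it, and *Bmp4* stays below 0.5.

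The rest of the pathway was described with 78 further genes in 7 lists, of which 45 passed the filter. At 0 h 10 of the 45 were at least 2-fold higher in R255K cells, against the 10.0% of all genes, and 3 were lower, against 9.76%. Of the 10, 7 were under 1 FPKM in WT cells and passed through their R255K level. Of the 3, 1 was under 1 FPKM in R255K cells and passed through its WT level. These numbers are thus no measure of how often such genes differ. Among ligands, 4 of 13 passed. *Gdf3*, the most abundant, was at 70.4 and 78.1 FPKM in WT and R255K cells, and *Bmp8b* and *Bmp6* were higher in R255K cells (0.370 and 2.24 FPKM, and 0.647 and 1.36 FPKM). *Bmp8a* was lower, with 1.91 and 0.957 FPKM. In WT cells *Gdf3* was above and the other 3 were below *Bmp4* (47.4 FPKM).

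Of the receptors and co-receptors, 5 of 10 passed, and the co-receptor gene *Eng* was higher in R255K cells (4.04 and 8.86 FPKM, ratio 2.19, 1.90 to 2.54). *Rgmb* (ratio 1.97, 1.59 to 2.45), *Acvr1* (1.33, 1.07 to 1.67) and *Acvr2b* (0.953, 0.844 to 1.08) did not reach 2-fold, and 2 of the 5 had a ratio of shares left at 4 h over 1.5, against 31.9% of all genes. Of the other Smads, 3 of 4 passed and 0 reached 2-fold at 0 h, against 10.0% of all genes higher and 9.76% lower. *Smad2* and *Smad3*, effectors of the activin and TGFβ branch, had ratios of shares left at 4 h of 2.30 (1.88 to 2.82) and 2.24 (1.49 to 3.41), and *Smad4*, the shared partner, 1.49 (1.33 to 1.67). Their half-life ratios were 1.91, 1.88 and 2.01, next to 2.08 for *Smad1* and 4.05 for *Smad5*.

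Of the extracellular antagonists, 8 of 19 passed. At 0 h 3 were higher, against 10.0% of all genes, and 0 were lower, against 9.76%. The higher ones other than *Smoc1* were under 1 FPKM in WT cells and passed through their R255K level. *Smoc1* was higher in R255K cells (1.64 and 6.27 FPKM, ratio 3.82, 3.05 to 4.83). *Bambi*, a decoy receptor and itself a known BMP target, had a ratio of 1.94 (1.64 to 2.30), and *Fstl1* (0.697) and *Twsg1* (0.745) were lower by less than 2-fold. Of the intracellular negative regulators, 14 of 15 passed. At 0 h 0 were higher, against 10.0% of all genes, and 1 was lower, against 9.76%. The lower one was the phosphatase gene *Ctdsp2* (31.5 and 11.4 FPKM, ratio 0.362, 0.336 to 0.389). In this list 8 of 14 had a ratio of shares left at 4 h over 1.5, against 31.9% of all genes, among them the corepressor genes *Ski* (2.06, 1.88 to 2.25) and *Tgif1* (2.52, 2.25 to 2.84). *Fkbp1a*, whose product holds type I receptors inactive, had 0.682 (0.652 to 0.713).

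Of the BMP target transcription factors and related targets, 8 of 14 passed, 4 were higher and 1 lower at 0 h, against 10.0% and 9.76% of all genes. Of the 4 higher ones, 3 (*Msx2*, *Msx1* and *Hey1*) were under 1 FPKM in WT cells and passed through their R255K level. The lower one was *Tbx3* (27.0 and 6.18 FPKM, WT 4.37-fold higher, 4.01 to 4.76), while *Dusp9* (ratio 1.27), *Zfp423* (0.772) and *Hhex* (0.997) did not reach 2-fold. The 4 higher genes, named after their values were seen, were *Msx2* (27 and 284 counts, ratio 11.7, 7.89 to 18.1), *Msx1* (18 and 109 counts, 6.75, 4.08 to 11.8), *Hey1* (33 and 99 counts, 3.34) and *Gata2* (107 and 224 counts, 2.33). Of the bHLH partners of ID proteins, *Tcf3* had 49.7 and 59.1 FPKM and *Tcf12* 2.00 and 1.62 FPKM, and *Tcf4* was lower in R255K cells, with 1.74 and 0.497 FPKM (WT 3.50-fold higher, 3.01 to 4.09). *Tcf4* was thus under 1 FPKM in R255K cells and passed the filter through its WT level. Over the 45 genes, 22 had a ratio of shares left at 4 h over 1.5, against 31.9% of all genes, and *Dusp9* (0.618) was under its inverse. *Msx1*, with 18, 0 and 0 counts in WT cells, is not read in either direction here, since its WT share left rests on the floor of 3 counts. By half-life 25 of 37 were over 1.5, against 68.8%. The median ratio of shares left at 4 h was 1.49 over the 45 genes.

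**Figure D5:**
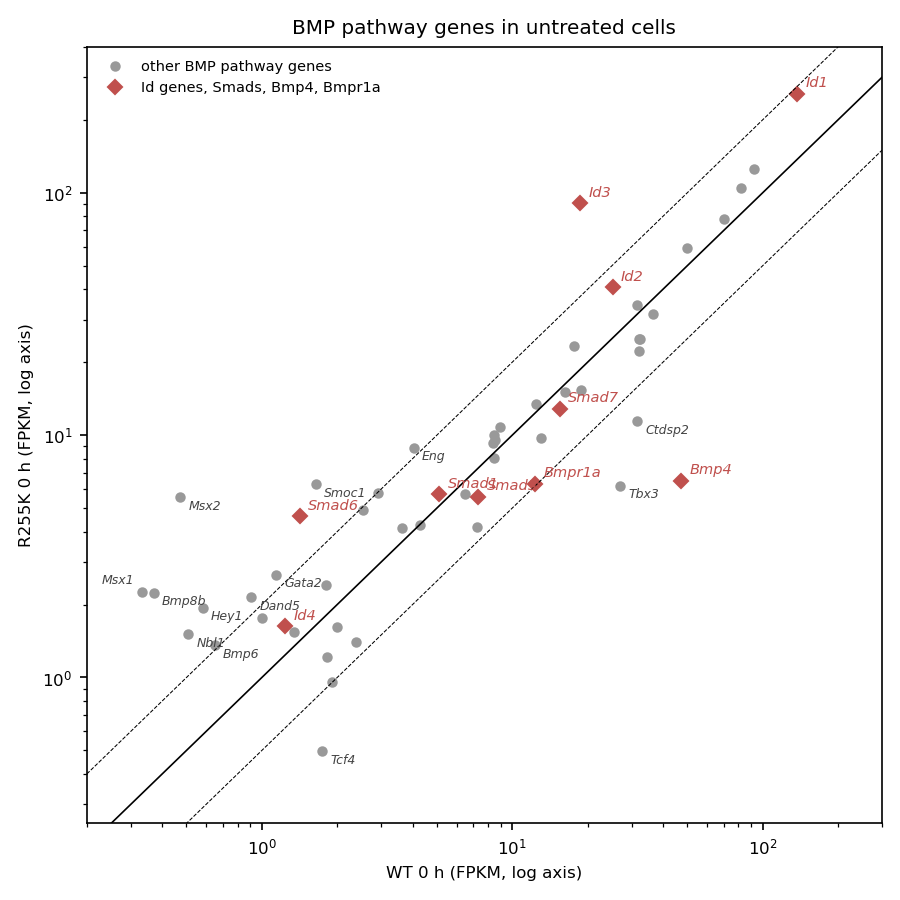
Level at 0 h in R255K against WT cells (FPKM, log axes) for the 10 genes (red diamonds) and the 45 other BMP pathway genes that passed the filter (grey circles, named where they differ at least 2-fold); the solid line marks equal levels and the dashed lines 2-fold. *Id3* (18.7 and 91.0 FPKM) and *Smad6* lie above the upper dashed line, and *Bmp4* (47.4 and 6.496 FPKM), *Tbx3*, *Ctdsp2* and *Tcf4* below the lower one.

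The genes whose pattern over the 6 libraries was nearest to the mean pattern of *Id1*, *Id2* and *Id3* were *Efnb1*, *Ddit4l*, *Arl4c*, *Zfp775* and *Il17ra*. Likeness was the Euclidean distance between log2(CPM + 0.5) values centred on each gene's own mean, and these 5 lay at 0.351 to 0.464, against a median of 3.14 over 11869 genes. *Efnb1*, an ephrin ligand gene, was counted 102, 12 and 5 times in the WT libraries and 185, 59 and 39 times in the R255K libraries at 0, 4 and 8 h. For *Ddit4l* these counts were 99, 12 and 2 and 235, 78 and 47. All 5 were higher in R255K cells at each time and fell after actinomycin D in both genotypes, and all had fewer counts than each of the 3 *Id* genes in each library. Their WT libraries held only 8 to 15 counts at 4 h and 2 to 9 at 8 h, so the added 0.5 CPM weighs on their distances. *Id3*, *Id1* and *Id2* themselves lay at 1.095, 1.21 and 1.35 from their mean, which is therefore not the pattern of any 1 of them. *Smad6* lay at 0.891 from the mean pattern, *Smad1* at 1.26, *Smad7* at 1.48, *Id4* at 1.75, *Smad5* at 1.91, *Bmpr1a* at 2.64 and *Bmp4* at 4.72. By distance *Smad6*, *Smad1* and *Smad7* had ranks 145, 599 and 1013, so many other genes lay nearer. The place of *Smad6* also rests on WT counts of 2 and 3 after actinomycin D.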

How the data were processed

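The authors removed reads matching rRNA with Bowtie2 2.2.6, aligned to mm10 with HISAT2 and used Picard 2.16.0 and SAMtools 0.1.09, per the labels. The deposited tables hold whole-number counts per gene without normalization, and the counting tool is not given in the sources used here. The authors called peaks with MACS2, and the deposited lists give a fold enrichment ratio and −log10 q per peak. How the replicates were combined is not given in the sources used here.

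FPKM used library totals and the deposited exon lengths. Counts under 3 at 4 or 8 h were raised to 3 for decay rates and for the calls on shares left. Level intervals were exact binomial ones, intervals of ratios of shares exact conditional ones, half-life intervals came from the delta method and shares of peaks from Wilson. The half-life code was tested on simulated data. Peaks were placed with bedtools 2.31.1 on the exons given in the deposited count tables. Principal transcripts, coding sequence and UTRs came from GENCODE vM21. Python 3.11.15, pandas 2.3.3, scipy 1.17.1, statsmodels 0.14.6 (lowess span 0.3 for GC), pysam 0.24.0 and matplotlib 3.10.9 were used, and edgeR 4.0.16 gave TMM factors only.

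The genes and lists were chosen with earlier results of these data known. Named were the 10 genes, the 4 most abundant of each pathway list, the 5 nearest patterns and *Mettl14*. *Msx2*, *Msx1*, *Hey1* and *Gata2* were added after their values were seen.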

Additional observations from a re-analysis of the deposited data

Results flagged for a closer look

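*Bmpr1a* stood out because its share of the library moved in opposite directions in the 2 genotypes after actinomycin D. In WT cells it was at 40.4% of the 0 h level at 4 h and 19.1% at 8 h, and in R255K cells at 165% and 141%. The difference was not tested, since there is 1 library per genotype and time. In R255K cells the share stayed above the 0 h level under each of 3 other scalings (at 4 h 166% with TMM, 175% with median-of-ratios factors and 153% relative to ribosomal protein genes, and at 8 h 155%, 164% and 122%) and with the correction for GC content (131% and 129%). The other 9 genes fell in both genotypes at both times.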

How the results depend on the processing

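The count of genes with a share left at 4 h over 1.5 times stayed at 7 under 6 alternatives (TMM, median-of-ratios factors, scaling to ribosomal protein genes, no filter, a floor of 1 count and the GC correction, which was chosen after seeing the data), while the share of all genes moved between 25.6% (TMM) and 47.2% (ribosomal protein genes). The count at 2-fold at 0 h was 3 or 4 under 6 alternatives, and *Bmpr1a* was added under each of the 3 scalings. The share of all genes at this threshold lay between 12.4% (1 FPKM added to each level) and 25.5% (no filter). The count by half-life lay between 3 and 6 under 10 alternatives, and the share of all genes between 60.1% (TMM) and 80.5% (ribosomal protein genes). *Smad7* fell under 1.5 with TMM (1.44), median-of-ratios factors (1.45) and 8 h alone (1.496), which for equally spaced times equals the least-squares line. From 4 to 8 h alone *Id1* (1.56), *Id2* (1.53), *Id3* (2.19), *Smad1* (4.01), *Smad5* (2.93) and *Bmpr1a* (4.81) were over 1.5, *Smad7* (1.06) was not and *Smad6* gave no value. *Id1* (0.880 to 1.56), *Id3* (0.967 to 2.19) and *Id4* (0.766 to 1.16) changed direction between alternatives. With a floor of 3 in place of the 2 WT counts, the *Smad6* ratio of shares left at 4 h was 4.33 and not 6.496. With TMM the all-gene median log2 level ratio moved from 0.22 to −0.01 at 4 h and from 0.49 to 0.05 at 8 h, and with ribosomal protein genes to 0.42 and 0.84. With median-of-ratios factors it moved to −0.06 and −0.12. The genes at least 2-fold higher at 8 h numbered 6, 6 and 8 under the 3 scalings, in place of 7. The share of all genes under these scalings is not given here, so these counts are not set against a background. Lost peaks numbered 8 with 50% of the WT peak covered (58.9% of all exonic peaks), 4 of 9 at a fold enrichment of at least 4 (51.0%), 6 of 13 at a −log10 q of at least 5 (47.5%), and 5 with the summit in an exon (47.6%). Of 180 single-gene values under alternatives, 145 stayed within the counting interval and 35 left it. No paired analysis was possible because replicate numbers exist only for the MeRIP-seq libraries and the peak lists carry no value per replicate. Leaving out a library was not possible with 1 per genotype and time. Depth limits *Id4* and treated WT *Smad6*.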
